A study of Mus musculus with 2 samples.

Results

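Krüppel-like factors are transcription factors that bind CACCC sequences and GC-rich boxes in DNA through zinc fingers at the C-terminal end of the protein. Their N-terminal parts differ and recruit either coactivators or corepressors, so that members with nearly the same DNA binding can have opposite actions on a gene. In the macrophage lineage, Klf2 is known for restraining inflammatory activation, and Klf4 for roles in monocyte differentiation and alternative activation. Both are also known from the network that maintains embryonic stem cells. The genes described here are Klf2, Klf3, Klf4, Klf6, Klf7, Klf9, Klf10, Klf11, Klf13 and Klf16, 10 of the 22910 genes that could be named on the array. They were chosen by name, with earlier results of these data known, and 13 probes carry a transcript accession of one of them.

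Primary and self-renewing macrophages were each measured as total RNA on 1 single-dye Agilent array for mouse transcripts. Both cultures came from bone marrow of C57BL/6 mice, given as male, and were grown with 100 ng/ml recombinant human M-CSF. The primary macrophages, differentiated from bone marrow monocytes, were taken at day 5, and the self-renewing macrophages are the cells of colonies that went on growing when most of such a culture had ceased to divide, taken after passage 4. The labels name no clone for the latter, the methods describe mixed populations as the default material, and the number of mice behind each RNA is not given in the sources used here. The comparison asks which transcription factors differ in level between macrophages that renew themselves and those that do not. With 1 array for each cell type there is no spread between replicates, no test was possible, and every difference is described by its size. A level is the log2 of the background-corrected spot intensity relative to the 75th percentile of the gene probes of its array, and a difference is the self-renewing level minus the primary level on the log2 scale. Levels of different probes are not comparable with each other, since each probe has its own binding strength. The number of arrays limits the precision, and 3 estimates of technical error were used beside it. The Feature Extraction software assigns each spot an error, which propagates to about 0.20 log2 in a difference between bright spots and follows "±" below. This error is nearly the same for all bright spots and holds no variation between cultures or RNA samples. Spots of the same probe within an array had a median SD of 0.043 to 0.046 log2, and different probes of a gene had a pooled SD of 0.319 log2 in their difference.

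Of 10 macrophage genes, among them Csf1r and Adgre1, 10 were well above background by the scanner software, below also called detected, on both arrays. So were 14003 of the 22910 named genes. The primary array also detected 8 of 10 dendritic cell genes and 7 of 9 T cell genes that could be named. Detection alone thus does not single out a cell type. Of 9 neutrophil genes that could be named, the primary array detected 9 and the self-renewing array 4. Their summed intensity was 51845 in primary and 2920 in self-renewing macrophages, with S100a9, S100a8 and Mmp8 differing most. Most of the self-renewing sum came from Elane, with 3602 in primary and 2671 in self-renewing macrophages, or -0.47 log2. The labels call both samples male, but of 6 Y-linked genes the primary array detected 0 and the self-renewing array 4, and Xist was detected on the primary array alone. The array labelled primary thus went against its label of sex, and a difference between the cell types cannot be told apart from one between donors. In bulk RNA, fewer cells of a type and less RNA per cell cannot be told apart either.

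The promoters of 3 members are shown because they stand for the 3 outcomes in these data, namely a higher level (Klf2), a lower level (Klf9) and almost no difference (Klf4) in self-renewing macrophages. Each is the RefSeq window from 250 bases before to 50 bases after the annotated start, on build GRCm38.p6 and written 5′ to 3′ on the strand of the gene. Klf2 lies at chr8:72318812-72319111 on the plus strand, Klf4 at chr4:55532426-55532725 on the minus strand and Klf9 at chr19:23140976-23141275 on the plus strand. Capitals mark CACCC boxes, GC boxes (GGGCGG) and the consensus of MEF2, a factor that acts upstream of Klf2 and Klf4.
Klf2: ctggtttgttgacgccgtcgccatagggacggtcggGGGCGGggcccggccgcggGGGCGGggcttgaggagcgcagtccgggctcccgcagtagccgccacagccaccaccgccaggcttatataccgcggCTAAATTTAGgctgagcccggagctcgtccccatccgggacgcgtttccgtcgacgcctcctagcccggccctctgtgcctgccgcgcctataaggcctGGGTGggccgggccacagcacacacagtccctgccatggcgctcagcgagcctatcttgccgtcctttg
Klf4: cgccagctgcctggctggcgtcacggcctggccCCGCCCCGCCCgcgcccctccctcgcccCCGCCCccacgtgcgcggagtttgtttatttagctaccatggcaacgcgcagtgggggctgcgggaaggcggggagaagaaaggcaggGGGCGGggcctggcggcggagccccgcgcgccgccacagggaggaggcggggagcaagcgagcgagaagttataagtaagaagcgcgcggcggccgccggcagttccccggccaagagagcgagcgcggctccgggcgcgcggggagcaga
Klf9: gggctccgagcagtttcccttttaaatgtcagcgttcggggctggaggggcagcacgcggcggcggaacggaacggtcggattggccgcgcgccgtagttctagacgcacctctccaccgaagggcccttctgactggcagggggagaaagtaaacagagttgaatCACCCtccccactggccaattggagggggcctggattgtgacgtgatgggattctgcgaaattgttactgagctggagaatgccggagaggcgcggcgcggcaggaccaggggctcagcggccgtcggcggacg

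The Klf2 window holds 2 GC boxes, 1 CACCC box and 1 match to the MEF2 consensus, which begins 118 bases before the start. The Klf4 window holds 4 GC boxes, 2 of which overlap, and the Klf9 window holds 1 CACCC box and no other capitals. Windows were found for 8 of the 10 members, all but Klf10 and Klf16. Among these 8, searched on both strands, 7 held a GC box, 5 a CACCC box and 1, that of Klf2, a MEF2 consensus. Over all 32851 windows of the same length these shares were 35.7%, 57.5% and 0.557%. The member windows had a median GC content of 70.7% against 52.7% over all windows. The cAMP response element TGACGTCA, the CArG box of Srf and the letters TGCTGA, part of the element recognised by Maf proteins, were each found in 0 of the 8 windows, and in 1.79%, 1.63% and 19.5% of all windows. CACCC and GC boxes may overlap. A match shows only that the letters are there.

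All 10 members were detected on both arrays, by at least 1 probe each, beside 14003 of the 22910 named genes. The Klf genes that neither array detected are not among the members. In self-renewing macrophages 5 were higher and 5 lower than in primary macrophages, with differences from -1.27 to 1.63 log2 and a median of 0.02 log2, where the median over the 15516 named genes that either array detected was -0.02 log2. By a threshold of 2-fold, 1 member was higher, Klf2, and 1 was lower, Klf9. Of the 15516 genes, 4.76% passed this threshold upwards and 8.38% downwards, so that 1 of 10 members in each direction is near the background. Differences beyond the SD between probes of a gene were found in 6 members, 3 higher (Klf2, Klf7 and Klf3) and 3 lower (Klf9, Klf16 and Klf11), against 43.3% of the 14003 genes measured on both arrays. The other 4, Klf4, Klf6, Klf10 and Klf13, lay within that SD of 0.

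**Figure D1:**
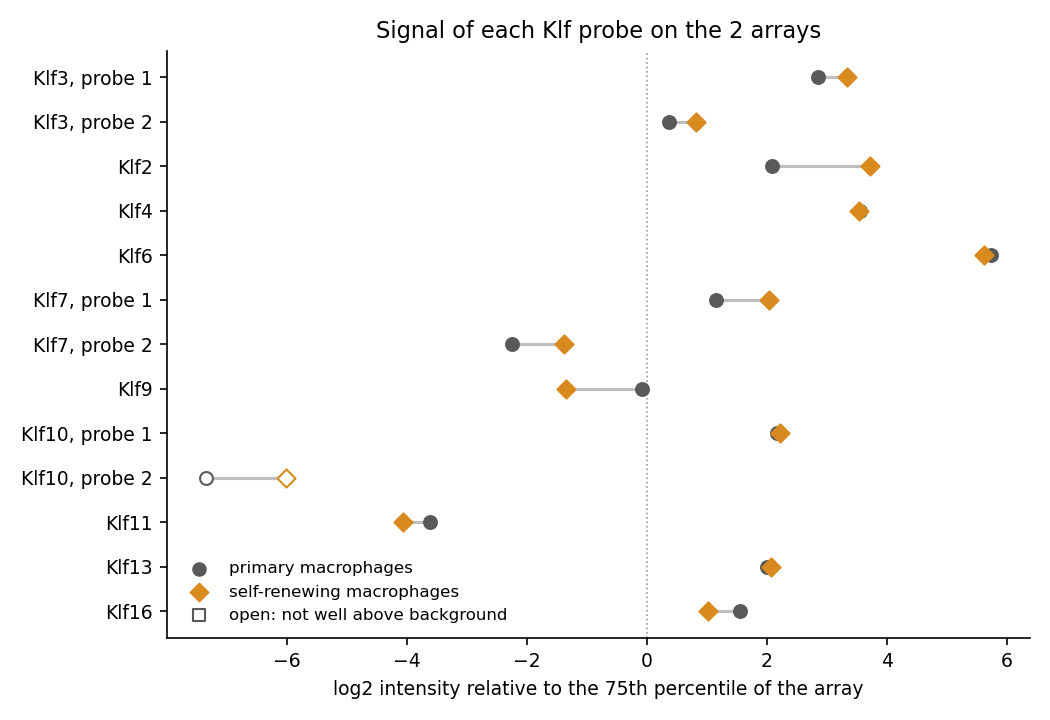
Level of each of the 13 Klf probes in primary (circles) and self-renewing (diamonds) macrophages, as log2 intensity relative to the 75th percentile of the array, with 1 array per cell type. Open symbols mark the Klf10 probe that was not well above background, and the longest lines between filled symbols are those of Klf2, to the right, and Klf9, to the left.

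The members that work mainly as activators are Klf2, Klf4, Klf6 and Klf7. Klf2 was the member with the largest difference. Its probe gave an intensity of 1852 in primary and 5893 in self-renewing macrophages, over local backgrounds of 23 and 24, so that the signal stood far above background on both arrays. This was a level of 2.09 against 3.72 log2, a difference of 1.63 ± 0.20 log2 or 3.09-fold higher in self-renewing macrophages. Among the 14003 genes measured on both arrays, 246 were higher by more, and 4.33% differed at least as much in either direction. Klf2 was read by a single probe, so the value has no second probe to compare with.

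Klf7, a factor best known from neurons and adipocytes, had the next highest difference and was read by 2 probes. The brighter probe gave 964 in primary and 1840 in self-renewing macrophages, or 0.89 ± 0.20 log2 and 1.85-fold. The dimmer probe gave 91.2 and 171, or 0.86 ± 0.21 log2. The probes thus differed by far less than the usual SD between probes, and both stayed below 2-fold.

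Klf4 was nearly the same on both arrays. Its intensity was 5076 in primary and 5171 in self-renewing macrophages, which is a difference of -0.01 ± 0.20 log2 after scaling. Klf6, an early response gene found in many cell types and in activated macrophages, gave 23048 and 22037, or -0.11 ± 0.20 log2. Both differences were smaller than the error of the spots, and with the authors' scaling both turned to the other side of 0, at 0.17 and 0.08 log2. Among the activators the differences thus spread from -0.11 to 1.63 log2. The difference between Klf2 and Klf4, the pair of stem cell factors, was 1.64 ± 0.29 log2 and cancels any scaling of whole arrays. This pair, and those below, were chosen after the values were seen.

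**Figure D2:**
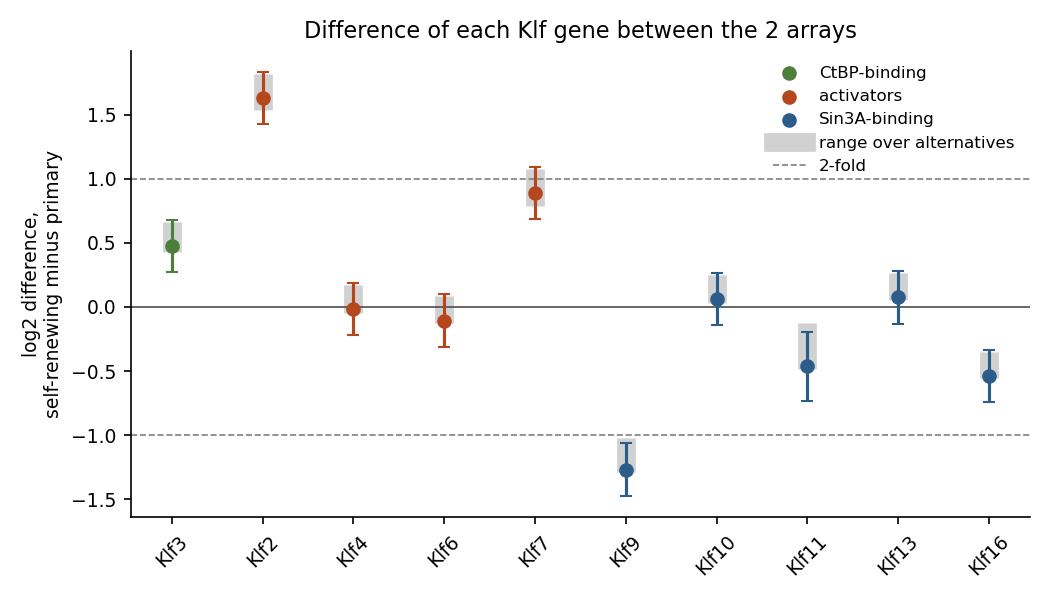
Difference between self-renewing and primary macrophages on the log2 scale for the 10 Klf genes, ordered by group (CtBP-binding, activators, Sin3A-binding). Points are the reported values, bars the error propagated from the Feature Extraction spot errors, grey bands the range over the other ways of processing, and dashed lines 2-fold. Klf2 lies above and Klf9 below the dashed lines across their whole grey bands, and the Klf7 band crosses the upper line.

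Klf9, Klf10, Klf11, Klf13 and Klf16 share the binding of the corepressor Sin3A. Klf9, which is induced by glucocorticoids and thyroid hormone, was the member with the largest difference downwards. Its intensity was 411 in primary and 175 in self-renewing macrophages, over local backgrounds of 27.5 and 29. This was a difference of -1.27 ± 0.21 log2, or 2.41-fold lower, and 528 of the 14003 genes were lower by more. Klf9 also had a single probe.

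Klf16, a factor described in the brain for control of dopamine receptor genes, gave 1278 in primary and 907 in self-renewing macrophages, a difference of -0.54 ± 0.20 log2. Klf11, a target of TGF-β, was dim, with 35.6 and 26.6, and stood only 1.59 and 1.01 log2 above the lowest signal that was well above background on its array. Its difference was -0.46 ± 0.27 log2, and with the normexp background correction, which models signal and background together, it was -0.12 log2. Klf16 and Klf11 were thus lower by less than 2-fold.

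Klf10, the other TGF-β-inducible member, gave 1944 and 2089 by its main probe, or 0.06 ± 0.20 log2. A second Klf10 probe was not well above background on either array. Klf13, known from T cells as an activator of Ccl5, gave 1732 and 1876, or 0.07 ± 0.20 log2. Neither Klf10 nor Klf13 differed by more than the error of the spots. Within the group the differences spread from -1.27 to 0.07 log2, and the difference between Klf9 and Klf13 was -1.34 ± 0.29 log2.

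Klf3 is a repressor that binds the corepressor CtBP. Its brighter probe gave 3151 in primary and 4516 in self-renewing macrophages, or 0.48 ± 0.20 log2 and 1.39-fold. Its other probe gave 560 and 790, or 0.46 ± 0.20 log2. Klf3 was thus higher by both probes to nearly the same extent, but 28.7% of genes measured on both arrays differed at least as much. Klf8, a related CtBP-binding repressor that Klf3 is known to repress in erythroid cells, is not among the 10 members. It gave 391 and 209 by the probe that was well above background, or -0.95 ± 0.21 log2, close to 2-fold lower. The difference between Klf3 and Klf8 was 1.43 ± 0.29 log2.

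**Figure D3:**
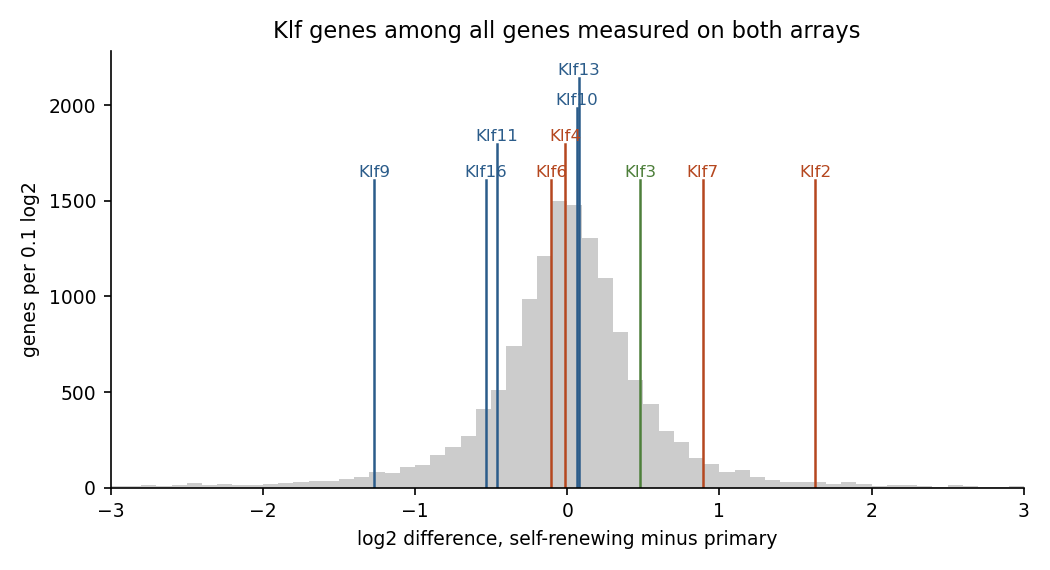
Distribution of the log2 difference between self-renewing and primary macrophages over the 14003 genes measured on both arrays (grey, genes per 0.1 log2), with a line at each Klf gene, whose height only sets its label apart. The axis ends at 3 log2 either way, and 177 genes lie beyond it. Klf4, Klf6, Klf10 and Klf13 stand in the peak, and Klf2 and Klf9 in the tails.

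The family has further members on the array. Of 7 other Klf genes, 2 were detected, Klf8 and the erythroid factor Klf1. Klf1 differed by 0.02 ± 0.21 log2, and of its 2 probes only the brighter was well above background. Of the erythroid genes besides Klf1, Hbb-b1 and Alas2 were not well above background on either array, whereas Hba-a1 and Tfrc were at least 2-fold lower in self-renewing macrophages. Klf5, Klf12, Klf14, Klf15 and Klf17 were not well above background on either array by any of their probes. Klf2 is also abundant in endothelial cells. Of 10 endothelial genes, 6 were well above background in primary and 5 in self-renewing macrophages, and Tie1, Tek and Emcn in neither. Their summed intensity was 3777 in primary and 2970 in self-renewing macrophages, most of it from Vwf, with 3062 and 2563. By gene, 2 were higher in self-renewing macrophages, Pecam1 by 0.36 log2 and Cldn5, detected there alone, by at least 0.70 log2. Both were dim, with intensities of 108 and 19.8 in self-renewing macrophages. The other 5 detected genes were lower, and of these Egfl7 alone passed 2-fold. It gave 332 in primary and 70.9 in self-renewing macrophages, or -2.27 log2. The part of endothelial cells in the Klf2 value was not tested.

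None of the listed genes that act upstream of Klf2 and Klf4 passed 2-fold. Of 16 such genes, both arrays detected 15, with 0 past the threshold upwards, 0 downwards and a median of 0.05 log2. Maf, which encodes a transcription factor of macrophages, differed by 0.44 log2. The MEF2 genes Mef2a, Mef2c and Mef2d differed by 0.81, 0.25 and -0.22 log2. Map2k5 and Mapk7, the kinases of the ERK5 cascade that acts on MEF2, differed by 0.05 and -0.43 log2. Hdac7, a deacetylase that binds MEF2 proteins, had the largest difference of the list, -0.94 log2. Myc, a driver of growth, was 1.47-fold lower in self-renewing macrophages. None of the 15 detected genes differed by as much as the 1.63 log2 of Klf2. These are RNA levels, and the part of these regulators in the Klf2 value was not tested.

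Genes for the proteins that Klf factors work with stayed within 2-fold. Of 18 genes for corepressors, coactivators and ubiquitin ligases, both arrays detected 18 and 0 passed 2-fold in either direction, from -0.28 to 0.47 log2 with a median of 0.10 log2. Ctbp1, which Klf3 and Klf8 recruit, and Sin3a, which the Klf9 group recruits, differed by 0.00 and 0.02 log2. Wwp1 and Fbxw7, ligases that mark Klf2 for degradation, differed by 0.35 and 0.19 log2.

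Genes known as targets of Klf2 or Klf4 lay mostly below 0. Of 20 on the list, 17 were detected, 5 above and 12 below 0, with a median of -0.81 log2, where 7427 of all genes lay above and 8076 below 0. By 2-fold, 0 were higher and 8 lower, beside 4.76% and 8.38% of all genes. The mean over the probes of each gene moved this median to -1.35 log2. Chil3, which encodes a chitinase-like protein of alternatively activated macrophages, was detected on the primary array alone and was at least 306-fold lower in self-renewing macrophages. Cdkn1a, the cell cycle inhibitor p21 and a target of several Klf factors, had levels of 4.10 and -1.92 log2, a difference of -6.02 log2, and its second probe gave -4.30 log2. Itgb7, an integrin that Klf2 controls in lymphocytes, was 19.2-fold lower. S1pr1, the receptor through which Klf2 controls T cell exit from lymphoid organs, differed by 0.59 log2. Arg1 and Retnla, marks of alternative activation, were not well above background on either array. These genes have many other regulators, the neutrophil genes moved the same way, and the part of either in these values was not tested.

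Of 20 genes known as targets of the other members, 18 were detected, with a median of -0.06 log2. By 2-fold, 1 was higher, the TGF-β receptor gene Tgfbr2, and 5 were lower, beside the same 4.76% and 8.38% of all genes. With the authors' scaling 3 were higher. Ccl5, the chemokine that Klf13 activates in T cells, was 2.98-fold lower in self-renewing macrophages while Klf13 differed by 0.07 log2. Lgals3, which Klf3 represses, differed by -0.08 and -0.63 log2 by its probes while Klf3 was 1.39-fold higher. Of 3 genes of lipid uptake and binding, Cd36 was 7.38-fold and Lpl 3.84-fold lower, and Fabp4, detected on the primary array alone, was at least 225-fold lower. Cdkn1a is on both target lists.

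Klf10 and Klf11 respond to TGF-β and act on its signalling. Of 16 genes of this pathway, 14 were detected, with a median of 0.35 log2, and by 2-fold 4 were higher and 2 lower, where the shares over all genes were 4.76% and 8.38%. Tgfbr2 was 2.16-fold higher, Smad3, which carries the signal to the nucleus, 3.65-fold, and the inhibitors Smad6 and Skil 4.58-fold and 3.27-fold. Smad6 was dim, with intensities of 17.0 in primary and 80.2 in self-renewing macrophages, and had 1 probe. The count of higher genes was 3 with the normexp correction and 5 with the authors' scaling. Tgfb3 and Tgfbr3 were detected on the primary array alone and were at least 3.19-fold and at least 7.63-fold lower in self-renewing macrophages. They were the 2 lower genes of the pathway, and the count was 1 with the normexp correction and 0 when probes had to be detected on both arrays. Smad7, an inhibitor that Klf10 represses, was 1.62-fold higher.

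Klf2, Klf4, Klf6 and Klf10 are induced within minutes to hours by growth factors, so a list of 23 immediate early genes was set beside them. Of these, 23 were detected, with a median of 0.16 log2, and by 2-fold 2 were higher and 2 lower, against 4.76% and 8.38% of all genes. Egr3 and Maff were 2.28-fold and 2.18-fold higher, and Nr4a1 and Atf3 3.57-fold and 2.72-fold lower. With the normexp correction 0 were higher by 2-fold. Fos, Egr1 and Jun differed by -0.48, -0.16 and 0.16 log2. None of the 23 was higher by as much as the 1.63 log2 of Klf2. The part of an early response to growth factor in the Klf2 value was not tested.

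**Figure D4:**
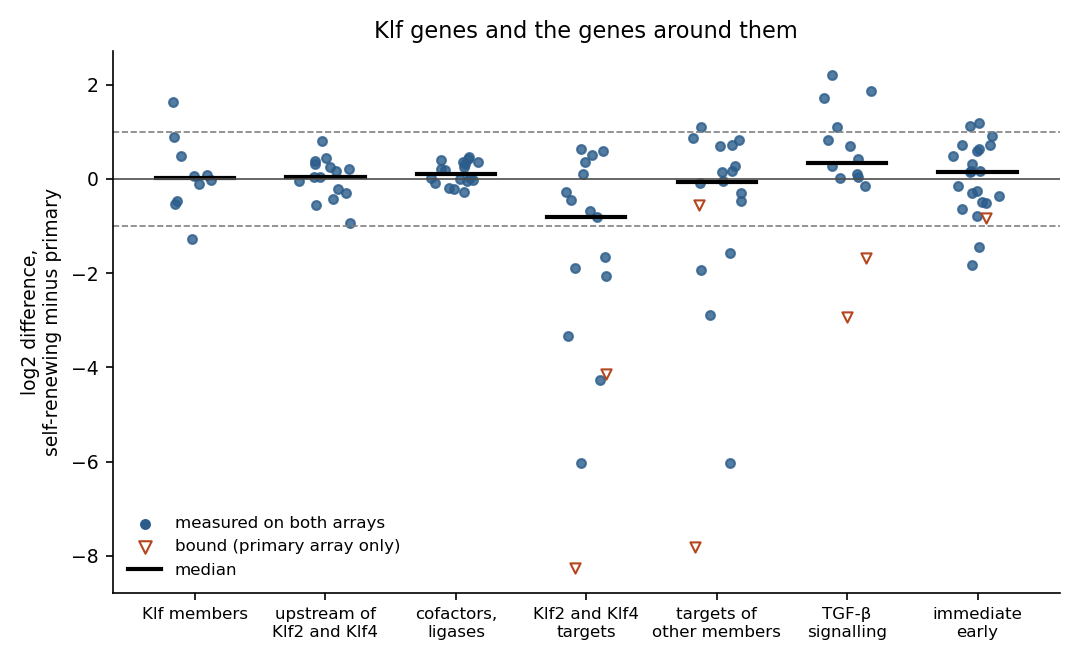
Difference between self-renewing and primary macrophages on the log2 scale for the Klf members and 6 lists of related genes. Each point is a gene measured on both arrays, each open triangle a bound for a gene that the primary array alone detected, black bars are medians and dashed lines 2-fold. Upstream genes and cofactors stay within the dashed lines, and the targets of Klf2 and Klf4 reach furthest down.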

How the data were processed

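RNA of primary and self-renewing macrophages was labelled with Cy3 and hybridised to SurePrint G3 arrays of Agilent, 1 for each cell type. Scanner output of Feature Extraction 11.5.1.1 was deposited, and it gives the intensity of each spot corrected for background within its array and not scaled between arrays, with an error and other flags for each spot per the file headers. They also deposited a table in which the same intensity is multiplied by a constant, 1.07 for primary and 1.19 for self-renewing macrophages. How these constants were chosen is not given in the sources used here.

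From the corrected intensity, log2 levels were computed relative to the 75th percentile over 56598 gene probes of each array (intensities of 434 and 446), after 63 spots with outlier flags per array were left out and spots of a probe averaged. No spot was saturated (0 on each array). Probes were named by transcript accession, without version, through a table of GRCm38.p6, which named 58.3% of them. The array was designed on an earlier build, so coordinates are given for RefSeq promoter windows only. A gene is its probe with the highest mean level among those well above background. A gene so on 1 array only has a bound, for which the signal on the other array was set to the lowest one well above background there, or to that of the probe if higher, and written as at least N-fold.

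No test was made. The threshold of 2-fold, the members, the gene lists and the groups by corepressor were chosen with earlier results of these data known. All 10 members, all other Klf genes and, from other lists, the genes past 2-fold (the 3 largest each way where over 6 passed) and genes picked by role are named, except some that are not reported here; further genes were named after their values were seen. The scripts were checked on simulated data. The alternatives were a normexp background correction (offset 50, on median spot signals), quantile normalization, scaling to the 75th percentile or median of the probes that both arrays detected, the authors' scaling, no filter on background, a filter that kept only probes detected by both arrays, a mean of all probes of a gene, and each probe alone. The same were run for groups by corepressor after the data were seen. Python 3.11.15 with pandas 2.3.3 and numpy 2.4.6, and R 4.3.3 with limma 3.58.1, were used.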

Additional observations from a re-analysis of the deposited data

How the results depend on the processing

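No paired analysis was possible because there is 1 array for either cell type, and for the same reason no replicate could be left out. A value was taken as moved when it shifted by more than 0.319 log2, the SD between probes of a gene. Of 84 values of the 10 members under the alternatives, 83 moved by less and 1 by more, that of Klf11, the dimmest member, with a difference of -0.12 log2 under normexp. Many of the 84 could not have moved by that much. Both settings of the background filter left every member at its main value, and the rescalings shift all genes alike, by 0.19 log2 or less. The count thus says little about stability, and this limit also holds for the counts of alternatives below. Klf2 stayed at least 2-fold higher, from 1.54 to 1.82 log2, and Klf9 at least 2-fold lower, from -1.29 to -1.03 log2, under all 8 alternatives. Klf4 ranged from -0.05 to 0.17 log2 and Klf6 from -0.12 to 0.08 log2, so their sign is not fixed.

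With the authors' scaling, which moves every gene by 0.19 log2 towards the self-renewing macrophages, 2 members were at least 2-fold higher, the second being Klf7 at 1.08 log2, and the median of the members was 0.21 log2. Over all genes, the normexp background correction left 429 at least 2-fold higher and 750 lower, no filter gave 1192 and 2336, and probes detected by both arrays gave 782 lower, in place of 739 and 1300. With the authors' scaling 1035 were higher and 1069 lower. Of 88 medians of related lists and groups, 84 moved by less than the SD and 4 by more.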

Other observations

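The Sp factors, which share the zinc finger type of the Klf proteins and bind GC boxes, stayed within 2-fold. Of 9 Sp genes, both arrays detected 5, Sp1, Sp2, Sp3, Sp4 and Sp6, and neither detected the other 4, Sp5, Sp7, Sp8 and Sp9. Their differences ran from -0.01 log2 in Sp4 to 0.36 log2 in Sp2, with a median of 0.12 log2, and 0 passed 2-fold. Sp1, found in nearly all cells, gave an intensity of 1686 in primary and 2052 in self-renewing macrophages, or 0.24 log2. The 2 Sp2 probes gave 0.36 and 0.10 log2.

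Macrophage genes outside these families set a scale for the Klf differences. Csf1r, the M-CSF receptor, and Spi1, the lineage factor PU.1, differed by 0.39 and 0.23 log2. Mertk, a receptor for dying cells, was 4.68-fold higher in self-renewing macrophages, and Fcgr1, an Fc receptor, 3.39-fold lower. Markers of other cells went both ways. Of 6 detected B cell genes 1 was above and 5 below 0, with Cd79a at 0.41 log2 and Cd22 at -0.02 log2 by its brightest probe. A dimmer Cd22 probe, detected on the primary array alone, was at least 3.56-fold lower in self-renewing macrophages. Cd79b, also detected on the primary array alone, was at least 54.4-fold lower there. Of 8 detected dendritic cell genes 2 were above and 6 below 0, with Zbtb46 at 0.62 log2 and Itgax 8.93-fold lower. Of 10 fibroblast genes 4 were detected, 2 above and 1 below 0. Fbln1, detected on the self-renewing array alone, was at least 4.74-fold higher, and Col1a2 was 1.62-fold higher. Postn and Thy1 were detected on the primary array alone, Postn at least 0.08 log2 lower in self-renewing macrophages and Thy1 too dim for a bound.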
